A study of Mus musculus with 45 samples.

Results

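The cholesterol synthesis genes described here are *Hmgcs1*, *Idi1*, *Fdft1*, *Sqle*, *Lss*, *Cyp51* and *Srebf2*, which encode 6 enzymes of the pathway and SREBP2, the transcription factor that drives them. They were taken as a named list, chosen with earlier results of these data known, and their Ensembl identifiers were matched to symbols. They are 7 of the 39179 genes counted, and all 7 were among the 17464 genes that had more than 4 reads in at least 1 liver and were tested. Liver RNA was sequenced from 45 female C57BL/6 mice, 5 in each of 9 groups. One group received sesame oil vehicle, and the others received TCDD (2,3,7,8-tetrachlorodibenzo-p-dioxin, a ligand of the aryl hydrocarbon receptor) in sesame oil at 1 of 8 doses, 30, 10, 3, 1, 0.3, 0.1, 0.03 or 0.01 µg/kg. Gavage was repeated every 4 days over a span of 28 days, starting on postnatal day 28, and food was freely available. The sample labels also give an ovariectomy for all mice, vehicle included, and contain the word daily, and the published methods mention neither. Those methods do refer to estrous stage, and assume that randomization and shared conditions cancelled effects of its differences. The hour at which livers were taken is not given in the sources used here.

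Reads assigned to genes numbered between 11767284 and 56509899 in a liver, and the median was 17225047. Expression is given as TMM-normalized CPM, which is the reads of a gene in a library of common size, after scaling each library by edgeR's trimmed mean of M-values. Unless another test is named, changes are log2 fold changes against the 5 vehicle livers from edgeR's quasi-likelihood test, with Benjamini-Hochberg adjustment over all genes tested at that dose and a threshold of 0.05. All 8 doses were compared with the same vehicle livers. Whole-liver RNA cannot tell fewer cells of a type from less RNA per cell.

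Cholesterol is built from acetyl-CoA through mevalonate, isoprenoid diphosphates, squalene and lanosterol, and the liver is a main site of this synthesis. SREBP2 is made as a membrane-bound precursor. When sterols are low, SCAP carries it to the Golgi, where proteases release the active factor, which binds sterol regulatory elements in the promoters of the pathway's genes together with NF-Y and Sp1. When sterols are high, INSIG proteins hold SCAP and the precursor in the endoplasmic reticulum, so the activity of SREBP2 need not follow the level of its mRNA.

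The 6 enzyme genes were lower at the top doses, and the gene of the factor that drives them was not called at any dose. All 6 enzymes fell at 30 µg/kg, to between 35.4% of the vehicle level for *Hmgcs1* and 67.9% for *Fdft1*. At 10 µg/kg 5 of the 6 fell, all but *Fdft1*. *Srebf2* stood at 89.5% of the vehicle level at 30 µg/kg, with an adjusted p of 0.5015, and its log2 fold change of -0.16 became 0.0501 when library totals were used without TMM scaling.

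Upstream sequence was available for 5 of the genes, *Hmgcs1*, *Idi1*, *Lss*, *Cyp51* and *Srebf2*, as the 250 bases before the RefSeq start of each gene on GRCm38.p6. Shown are those of *Hmgcs1*, the gene with the largest fall, of *Cyp51*, whose livers separated from vehicle at both top doses, and of *Srebf2*, which was not called. They run 5′ to 3′ on the strand of the gene, and capitals mark the sterol regulatory element letters TCACNCCAC and the NF-Y letters CCAAT on either strand.
Hmgcs1, chr13:119690101-119690350, plus strand: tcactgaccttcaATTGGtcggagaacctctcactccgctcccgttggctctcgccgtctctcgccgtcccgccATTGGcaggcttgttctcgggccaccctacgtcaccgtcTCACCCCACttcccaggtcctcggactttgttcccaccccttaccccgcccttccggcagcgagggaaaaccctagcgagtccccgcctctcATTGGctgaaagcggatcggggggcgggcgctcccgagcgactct
Cyp51, chr5:4104698-4104947, minus strand: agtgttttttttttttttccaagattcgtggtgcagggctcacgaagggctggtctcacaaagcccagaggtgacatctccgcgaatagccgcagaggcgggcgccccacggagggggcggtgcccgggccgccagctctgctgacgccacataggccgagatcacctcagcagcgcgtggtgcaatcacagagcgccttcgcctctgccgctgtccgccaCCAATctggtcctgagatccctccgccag
Srebf2, chr15:82147019-82147268, plus strand: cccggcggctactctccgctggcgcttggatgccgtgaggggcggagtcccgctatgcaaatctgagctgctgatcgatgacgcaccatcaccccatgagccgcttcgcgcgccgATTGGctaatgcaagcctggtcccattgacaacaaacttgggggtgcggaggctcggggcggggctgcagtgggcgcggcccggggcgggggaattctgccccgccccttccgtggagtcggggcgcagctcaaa

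The only match to TCACNCCAC among the 5 windows was that of *Hmgcs1*, at -137 to -129 from the start, and 1.05% of 32817 mouse windows of the same length hold one. All 5 windows hold CCAAT on one strand or the other, as do 33.8% of all windows, and *Hmgcs1* has 3 matches where *Cyp51* and *Srebf2* have 1 each. The Sp1 letters GGGCGG were also in all 5, against 32.7% of all windows, with 4 matches in *Srebf2*. The core of the dioxin response element, GCGTG, the sequence recognised by the aryl hydrocarbon receptor complex, was in the windows of *Idi1*, *Lss* and *Cyp51*, and 28.1% of all windows hold it. It was not in those of *Hmgcs1* and *Srebf2*. None of the 5 held the E-box CACGTG, which 6.02% of windows hold. Both strands were searched for every motif, and these matches are letters in a window and not measured binding sites. Only exact letters were searched, so a sterol regulatory element with another spelling would be missed, and its absence from a window is not shown.

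The position of each gene below is that of GENCODE on GRCm38, the build of the counts. The windows above end at RefSeq starts, and those of *Idi1*, *Lss*, *Cyp51* and *Srebf2* reach partly inside the gene as GENCODE places it. Per kilobase of exon, the vehicle mean was highest for *Hmgcs1*, at 154.6 CPM per kb, followed by *Cyp51* with 63.9. *Fdft1* and *Sqle* lay close together at 25.3 and 25.0 CPM per kb, *Lss* was at 10.4, *Srebf2* at 6.77 and *Idi1* at 3.86. These levels divide by the union of all annotated exons and understate genes whose annotated exons are not all used.

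*Hmgcs1* (13:119690379-119708260, plus strand) encodes the cytosolic HMG-CoA synthase, which condenses acetyl-CoA with acetoacetyl-CoA at the entrance to the pathway. The 5 vehicle livers had 897, 948, 422, 656 and 629 CPM. Livers of the 10 µg/kg group had 539, 257, 381, 234 and 131 CPM, and those of the 30 µg/kg group 362, 249.9, 227, 211 and 207 CPM. Every liver at 30 µg/kg lay below every vehicle liver, and at 10 µg/kg 4 of 5 did. The mean was 710.4 ± 215 CPM in vehicle (SD, n = 5) and 251 ± 63.9 at 30 µg/kg (SD, n = 5). The log2 fold change was -1.20 ± 0.36 (SE) at 10 µg/kg, with an adjusted p of 0.01626, which became 0.05428 without vehicle replicate 2 and 0.06496 without replicate 5 of 10 µg/kg. The value for 30 µg/kg was -1.50 ± 0.36 (SE), with an adjusted p of 0.001304. At 3 µg/kg the level was 56.7% of vehicle, which did not pass (adjusted p 0.1641), and 1 liver of that group, at 705 CPM, stood apart from the other 4 at 291 to 366 CPM.

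*Idi1* (13:8885501-8892451, plus strand) encodes isopentenyl-diphosphate isomerase, which makes dimethylallyl diphosphate for the chain-building steps. Vehicle livers had 15.5, 21.4, 12.1, 10.8 and 7.73 CPM, and those at 30 µg/kg had 7.30, 6.01, 6.61, 8.47 and 2.24 CPM. The groups overlapped through 1 vehicle liver and 1 treated liver, and 4 of 5 livers at 30 µg/kg were below every vehicle liver. *Idi1* fell by 0.84 on the log2 scale at 10 µg/kg (SE 0.27, adjusted p 0.02633) and by 1.12 at 30 µg/kg (SE 0.27, adjusted p 0.001478). The call at 10 µg/kg was lost without vehicle replicate 1 or 2 or replicate 4 or 5 of that dose (adjusted p from 0.05832 to 0.1528), and without TMM (0.06206). It had the fewest reads of the 7 genes, from 153 to 337 per vehicle liver and from 28 to 187 per liver at 30 µg/kg. Of the 50-base stretches of its longest transcript, 30.5% also occur in transcripts of other genes, most of them in the pseudogene *Gm13502*. As the reads were 50 bases long, its counts are uncertain to that extent.

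*Fdft1* (14:63145150-63179578, minus strand) encodes squalene synthase, which joins farnesyl units and commits them to sterols. Vehicle livers had 109.7, 129, 78.2, 118 and 100.1 CPM, and those at 30 µg/kg had 75.6, 57.4, 65.8, 85.0 and 79.7 CPM. The groups overlapped, with 3 of 5 livers at 30 µg/kg below every vehicle liver. The log2 fold change of -0.56 ± 0.18 (SE) at 30 µg/kg passed with an adjusted p of 0.01642, and that of -0.42 ± 0.18 (SE) at 10 µg/kg did not, with 0.1056. Without vehicle replicate 2 the adjusted p at 30 µg/kg was 0.06445, and without replicate 2 of 30 µg/kg it was 0.05746. Without replicate 1 of 10 µg/kg, the highest liver of its group, the fall at 10 µg/kg was called (adjusted p 0.01596). Without TMM the fall at 30 µg/kg had an adjusted p of 0.1325. Annotated exons of *Fdft1* overlap those of *Ctsb*, and 30.7% of its 50-base stretches occur in other genes, so reads there are uncertain.

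*Sqle* (15:59315077-59331192, plus strand) encodes squalene epoxidase, which adds oxygen to squalene and is a slow step of the pathway. Vehicle livers had 155.4, 152.4, 78.2, 189 and 118 CPM, against 75.5, 57.6, 71.2, 62.3 and 83.1 CPM at 30 µg/kg. The low vehicle liver, replicate 3, lay inside the range of the treated livers, and 4 of 5 treated livers were below it. *Sqle* fell by 0.93 at 10 µg/kg (SE 0.25, adjusted p 0.008146) and by 0.99 at 30 µg/kg (SE 0.25, adjusted p 0.002446) on the log2 scale. Both calls remained with each of the compared livers left out in turn.

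*Lss* (10:76531588-76557138, plus strand) encodes lanosterol synthase, which closes the sterol rings. Vehicle livers had 111, 133, 79.8, 142 and 96.5 CPM, and those at 30 µg/kg had 80.2, 57.5, 62.3, 70.1 and 80.5 CPM. The groups met at their edges, where 2 livers at 30 µg/kg were slightly above the lowest vehicle liver. The log2 fold change was -0.67 ± 0.20 (SE) at 10 µg/kg with an adjusted p of 0.01637, and -0.68 ± 0.20 (SE) at 30 µg/kg with 0.007773. The call at 10 µg/kg was lost without vehicle replicate 2 or 4 or replicate 4 or 5 of that dose, with adjusted p of 0.0568, 0.06291, 0.0586 and 0.07349. Without TMM the adjusted p was 0.05156 at 10 µg/kg and 0.05963 at 30 µg/kg.

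*Cyp51* (5:4081145-4104746, minus strand) encodes lanosterol 14-alpha-demethylase, the cytochrome P450 of the pathway. Vehicle livers had 325, 346, 231, 271 and 237 CPM. Livers of the 10 µg/kg group had 220.4, 159, 184, 126 and 91.8 CPM, and those of the 30 µg/kg group 158, 106, 135, 150.1 and 150.4 CPM. Neither dose group overlapped vehicle. The log2 fold change was -0.85 ± 0.20 (SE) at 10 µg/kg, with an adjusted p of 0.001943. At the top dose it was -1.01 ± 0.20 (SE), and its adjusted p of 0.0001173 was the lowest of the 7 genes. Both calls remained with each compared liver left out in turn. Of its 50-base stretches 3.17% occur in other genes, against 13.6% for *Hmgcs1* (in *Gm48342*, whose exons overlap), 2.9% for *Lss* and 0.0453% for *Sqle*.

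*Srebf2* (15:82147181-82205379, plus strand) encodes SREBP2. Vehicle livers had 45.3, 54.1, 41.7, 59.7 and 42.3 CPM. Livers at 10 µg/kg had 51.8, 41.0, 38.98, 37.6 and 37.7 CPM, and those at 30 µg/kg had 39.9, 40.1, 36.2, 41.0 and 60.8 CPM. In both treated groups 4 livers lay below every vehicle liver and the remaining one lay within the vehicle range at 10 µg/kg and above it at 30 µg/kg. For 10 µg/kg the change was -0.23 ± 0.16 (SE) on the log2 scale, with an adjusted p of 0.3767. The top dose gave -0.16 with a 95% confidence interval of -0.49 to 0.17 (0.0501 without TMM), which still allows a fall of about the size found for *Fdft1* at 10 µg/kg. No 50-base stretch of its longest transcript occurs in another gene.

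**Figure D1:**
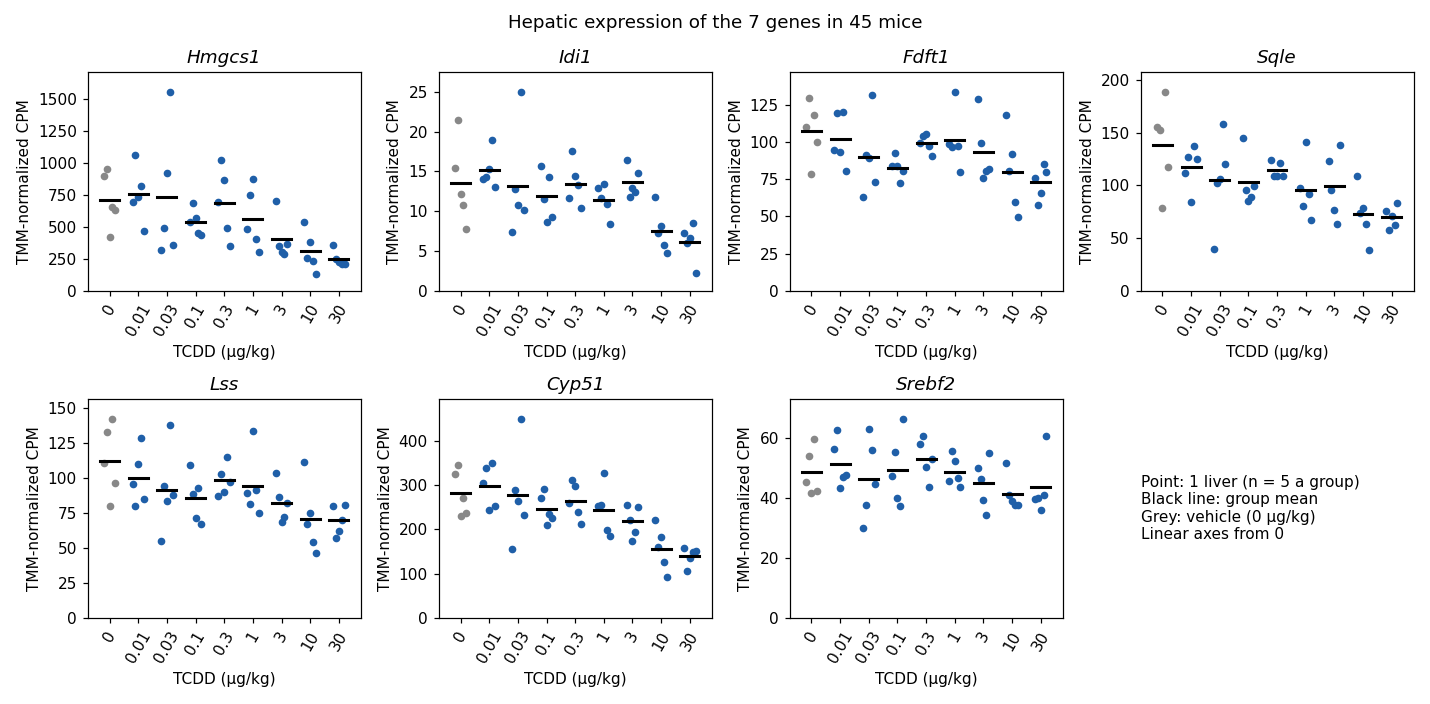
TMM-normalized CPM of each of the 7 genes (linear vertical axes from 0) in the 45 livers by TCDD dose in µg/kg, with 1 point per liver, grey points for vehicle and a black line at each group mean (n = 5). *Hmgcs1* goes from a mean of 710.4 CPM in vehicle to 251 at 30 µg/kg and *Cyp51* from 282 to 140.0, while *Srebf2* goes from 48.6 to 43.6 with overlapping points, a direction that turns without TMM scaling.

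Counted over the list, 5 of the 7 genes fell at 10 µg/kg and 6 of 7 at 30 µg/kg, and none rose at either dose. Among all genes tested 7.47% fell at 10 µg/kg and 14.1% did at 30 µg/kg. The median log2 fold change of the 7 was -0.84 at 10 µg/kg and -0.99 at 30 µg/kg, against 0.02 for all genes at either dose. The 5 genes at 10 µg/kg became 2 without vehicle replicate 2 or replicate 5 of that dose, and 3 without its replicate 4. Of all calls at 30 µg/kg, 47.7% were lower, and 19.7% were when library totals were used without TMM, which moved the median of all genes to 0.23. When a 2-fold change was also required, *Hmgcs1* passed at 10 µg/kg, as did 1.73% of all genes, and *Hmgcs1*, *Idi1* and *Cyp51* passed at 30 µg/kg, as did 3.42%. All 5 livers were below every vehicle liver for 1 of the 7 genes at 10 µg/kg, against 6.12% of all genes, and for 2 of the 7 at 30 µg/kg, against 9.57%.

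Below 10 µg/kg none of the 7 passed. Among all genes 0% were called lower at 0.01 µg/kg, 0.0229% at 0.03, 0% at 0.1, 0.143% at 0.3, 0.515% at 1 and 3.2% at 3 µg/kg. Unadjusted p values under 0.05 occurred at 0.1 µg/kg for *Fdft1* (0.04237), at 1 µg/kg for *Sqle* (0.03828) and at 3 µg/kg for *Hmgcs1* (0.0259) and *Lss* (0.02874). At 3 µg/kg the levels were 71.7% of vehicle for *Sqle*, 73.3% for *Lss*, 77.6% for *Cyp51*, 87.1% for *Fdft1*, 92.9% for *Srebf2* and 101.1% for *Idi1*. *Idi1* was thus at its vehicle level at 3 µg/kg (95% confidence interval of the log2 fold change -0.51 to 0.55) and at 56.04% of it at 10 µg/kg.

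**Figure D2:**
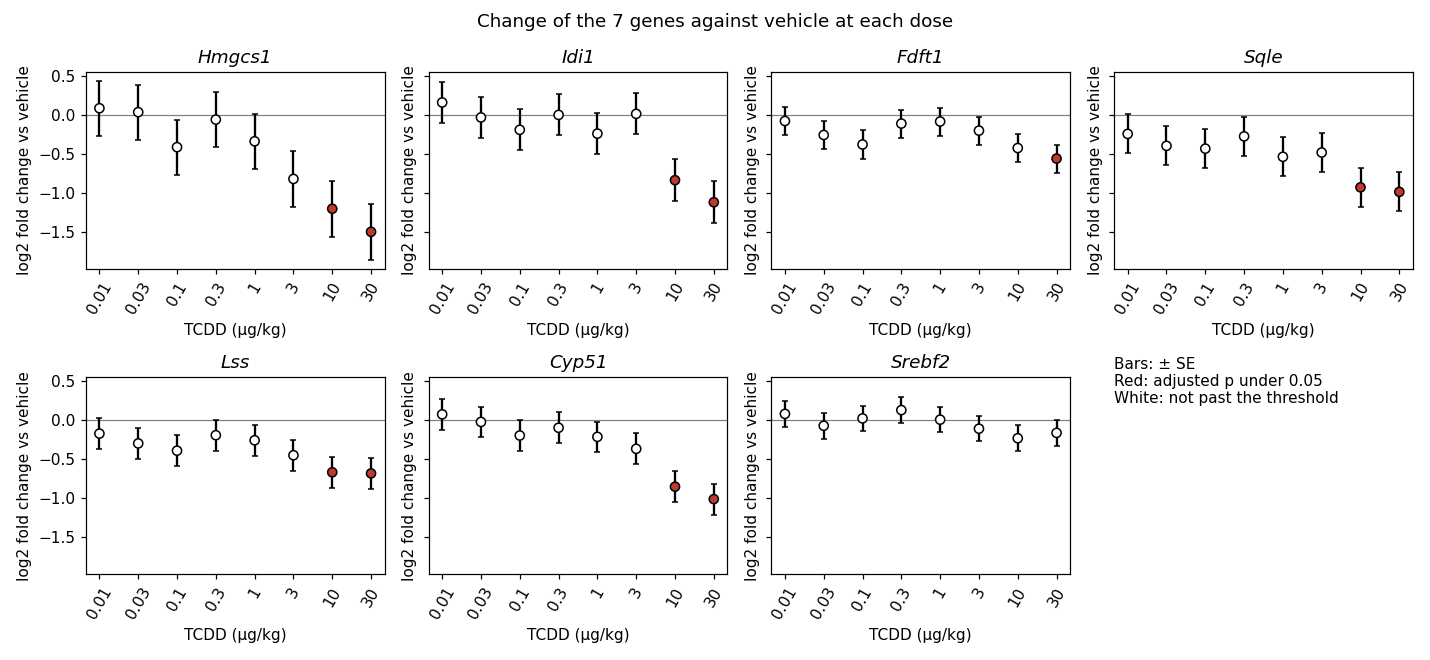
Log2 fold change against vehicle (vertical axis) of each gene at the 8 TCDD doses in µg/kg (horizontal axis, evenly spaced), with bars of ± 1 SE and red points where the adjusted p was under 0.05. Red points appear only at 10 and 30 µg/kg, 5 and 6 of them, and none belongs to *Srebf2*.

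Across all 9 groups, a test for a difference at any dose called *Hmgcs1* (adjusted p 0.001879), *Idi1* (0.002196), *Sqle* (0.03028) and *Cyp51* (9.629e-05). It did not call *Lss* (0.06645), *Fdft1* (0.1386) or *Srebf2* (0.5924). Of all genes 28.8% were called in this test. It called 3 of the 7 without TMM and 5 with DESeq2. For a linear trend, the 9 groups were equally spaced in order of dose, with vehicle as the step before 0.01 µg/kg. The trend fell for all 6 enzymes, and 19.7% of all genes had a falling slope that passed. The steepest was -0.19 ± 0.03 (SE) log2 units per dose step for *Hmgcs1*, and the shallowest of the 6 was -0.05 ± 0.02 (SE) for *Fdft1*. The slope of *Fdft1* did not pass without TMM (adjusted p 0.228), without the 30 µg/kg group (0.2336), or without replicate 2 of vehicle (0.05875) or of 30 µg/kg (0.0512). The slope of *Srebf2* was -0.03 ± 0.01 (SE) with an adjusted p of 0.131, which became 0.04325 without replicate 5 of 30 µg/kg. In the order of group means, the ranges of all neighbouring groups overlapped for all 7 genes. Sorting by mean sets the most alike groups side by side, so this overlap does not test the steps between neighbouring doses.

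To set the enzymes against the factor within the same liver, the CPM of each was divided by that of *Srebf2*, a quantity that library scaling does not alter. This comparison was chosen after the values were seen, and 12 exact two-sided permutation tests of 5 livers against 5 were made on its log2 values, with no adjustment over them. The ratio for *Hmgcs1* was 10.1 to 19.8 in vehicle livers and 3.41 to 9.07 at 30 µg/kg. That for *Cyp51* was 4.54 to 7.18 in vehicle and 2.48 to 3.97 at 30 µg/kg. Neither pair of ranges overlapped, and both gave an exact p of 0.007937, the smallest that 5 against 5 can give. For the other enzymes at 30 µg/kg the exact p was 0.01587 for *Lss*, 0.02381 for *Sqle*, 0.04762 for *Fdft1* and 0.07143 for *Idi1*. At 10 µg/kg it was 0.01587 for *Hmgcs1* and *Cyp51*, 0.02381 for *Sqle* and *Lss*, 0.07143 for *Idi1* and 0.1825 for *Fdft1*. The largest mean difference was -1.31 log2 units, for *Hmgcs1* at 30 µg/kg, and the smallest at that dose was -0.38, for *Fdft1*. At 30 µg/kg the lowest ratio of every enzyme was in replicate 5, where *Srebf2* had 60.8 CPM against 36.2 to 41.0 in the others. The high *Srebf2* of that liver lowers its ratios and enlarges the mean differences at that dose.

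**Figure D3:**
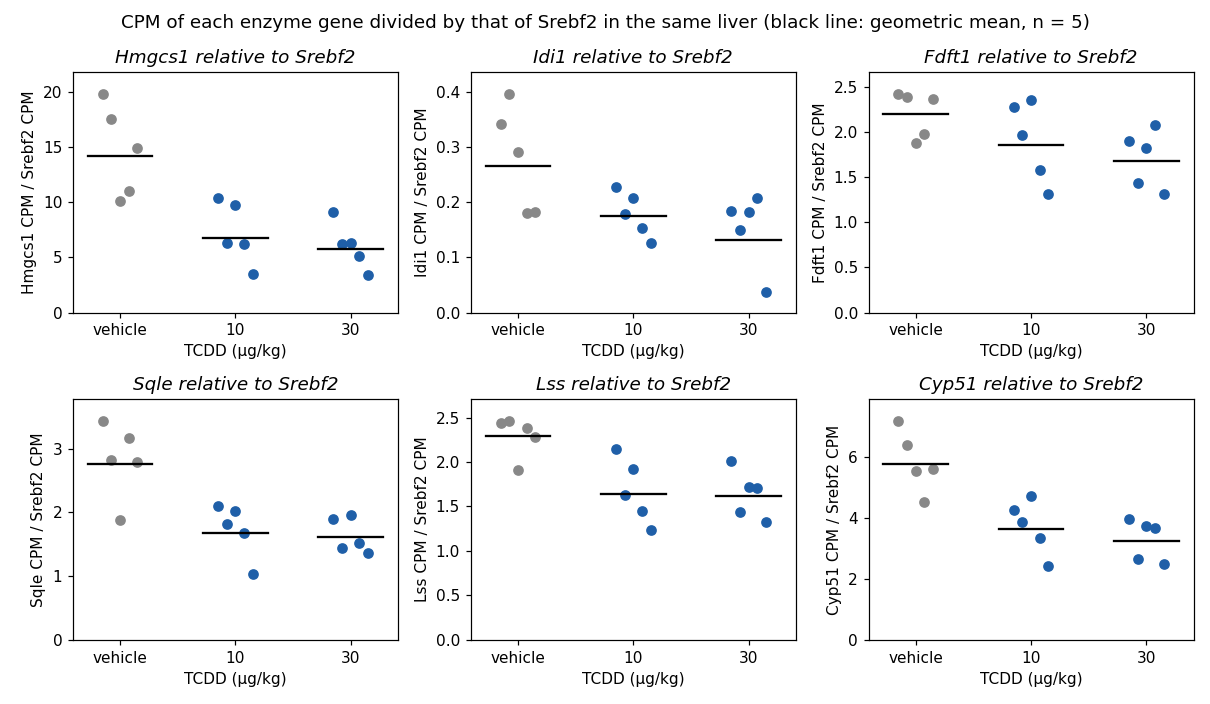
CPM of each of the 6 enzyme genes divided by the CPM of *Srebf2* in the same liver (vertical axes, linear from 0) in vehicle and at 10 and 30 µg/kg TCDD, with 1 point per liver and a black line at the geometric mean (n = 5). The ratios of *Hmgcs1* and *Cyp51* at 30 µg/kg, up to 9.07 and 3.97, lie below all vehicle ratios, which start at 10.1 and 4.54.

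The 7 genes varied together among mice of one group. After removal of the group means, Pearson's r over the 45 livers was highest between *Fdft1* and *Cyp51*, at 0.885, and lowest between *Idi1* and *Srebf2*, at 0.09. *Hmgcs1* had an r of 0.842 with *Cyp51* and 0.82 with *Fdft1*, and *Sqle* one of 0.801 with *Lss*. The r of *Srebf2* with the enzymes ran from 0.09 to 0.621. These are descriptions, since all values of a liver share its library and scaling. The shared spread sat in particular livers. In the 10 µg/kg group, replicate 1 was the highest for all 7 genes and replicate 5 the lowest for 6. In the 0.03 µg/kg group replicate 4 was the highest for 6 genes and replicate 1 the lowest for all 7, so that *Hmgcs1* there spanned 320.2 to 1554 CPM, with a coefficient of variation of 71.1%. Vehicle replicate 3 was the lowest of its group for 6 of the 7. The 10 µg/kg replicates 1 and 5 had similar depth, 29226126 and 27825698 reads on genes.

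The genes whose deviations from the group means were most like the mean of the 7 included others of the same pathway. The pathway lists described below hold 12, 6, 2, 7 and 6 genes. Of 12405 genes with a mean of at least 1 CPM, 9 of the 20 most alike were on these lists. They were *Fdps* (r 0.881 over 45 livers), *Mvk* (0.848), *Dhcr7* (0.83), *Mvd* (0.82), *Pmvk* (0.813), *Nsdhl* (0.787), *Msmo1* (0.778), *Insig1* (0.698) and *Sc5d* (0.678), while the median over all ranked genes was -0.022. Outside the lists stood *Mmab* (0.84), an enzyme of cobalamin metabolism, *Rdh11* (0.838), a retinol dehydrogenase, *Ptk6* (0.738), a tyrosine kinase, *Rab23* (0.7), a small GTPase, and *Pgd* (0.689), an enzyme of the pentose phosphate route. Another 4 were processed pseudogenes, named here after their values were seen, with the most alike of all, *Gm6781* (0.918), among them. *Gm6781* shares 396 of its 50-base stretches with *Fdft1* and *Gm13502* shares 635 with *Idi1*, while *Gm3571* and *Gm5873* share 94 and 30 with *Fdps*. Their likeness to the genes they resemble can therefore not be told apart from shared reads. Other listed genes were less alike, among them *Ebp* (0.419), *Stard4* (0.402), *Srebf1* (0.262) and *Tmem97* (-0.023).

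The remaining steps of the pathway were described by a list of 12 other enzymes, which, like the 7 genes, is not the whole pathway. Of the 12, 10 fell and none rose at 30 µg/kg, with a median log2 fold change of -0.82, and 14.1% of all genes fell. The lower dose of 10 µg/kg had 10 of 12 called lower, with a median of -0.66, against 7.47% of all genes called lower. Those 10 became 6 without replicate 4 or replicate 5 of 10 µg/kg. *Fdps*, farnesyl diphosphate synthase, had the largest change, a log2 fold change of -1.52 ± 0.24 (SE, adjusted p 3.839e-06). Its CPM was 77.0 ± 19.5 in vehicle and 26.9 ± 5.85 at 30 µg/kg (SD, n = 5). *Sc5d*, a desaturase near the end of the pathway, followed with -1.44 ± 0.21 (SE, adjusted p 8.824e-07). It went from 999 ± 196 to 367 ± 68.4 CPM (SD, n = 5). *Fdps* and *Sc5d* were also the 2 of the 12 called at 3 µg/kg, with log2 fold changes of -0.83 and -0.77, a dose at which none of the 7 genes was called.

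*Pmvk*, phosphomevalonate kinase, fell by 1.06 and *Dhcr7*, which makes cholesterol in the last step of one branch, by 1.01 on the log2 scale at 30 µg/kg. The demethylation enzymes *Msmo1* and *Nsdhl* fell by 0.96 and 0.89, and *Acat2*, the cytosolic thiolase that supplies acetoacetyl-CoA, by 0.74. *Tm7sf2*, *Ebp* and *Hsd17b7*, which act on the sterol rings, fell by 0.64, 0.58 and 0.54. *Acat2* shares 45.9% of its 50-base stretches with other genes, chiefly *Acat3*, and its counts are uncertain. *Mvd*, mevalonate diphosphate decarboxylase, did not pass, with -0.72 ± 0.30 (SE, adjusted p 0.06518). *Mvk*, mevalonate kinase, had a log2 fold change of 0.04 ± 0.21 (SE, adjusted p 0.9193), with 24.6 ± 5.82 CPM in vehicle and 25.2 ± 4.59 at 30 µg/kg (SD, n = 5). *Mvk* was therefore among the genes most like the 7 within groups without a fall at the top dose.

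**Figure D4:**
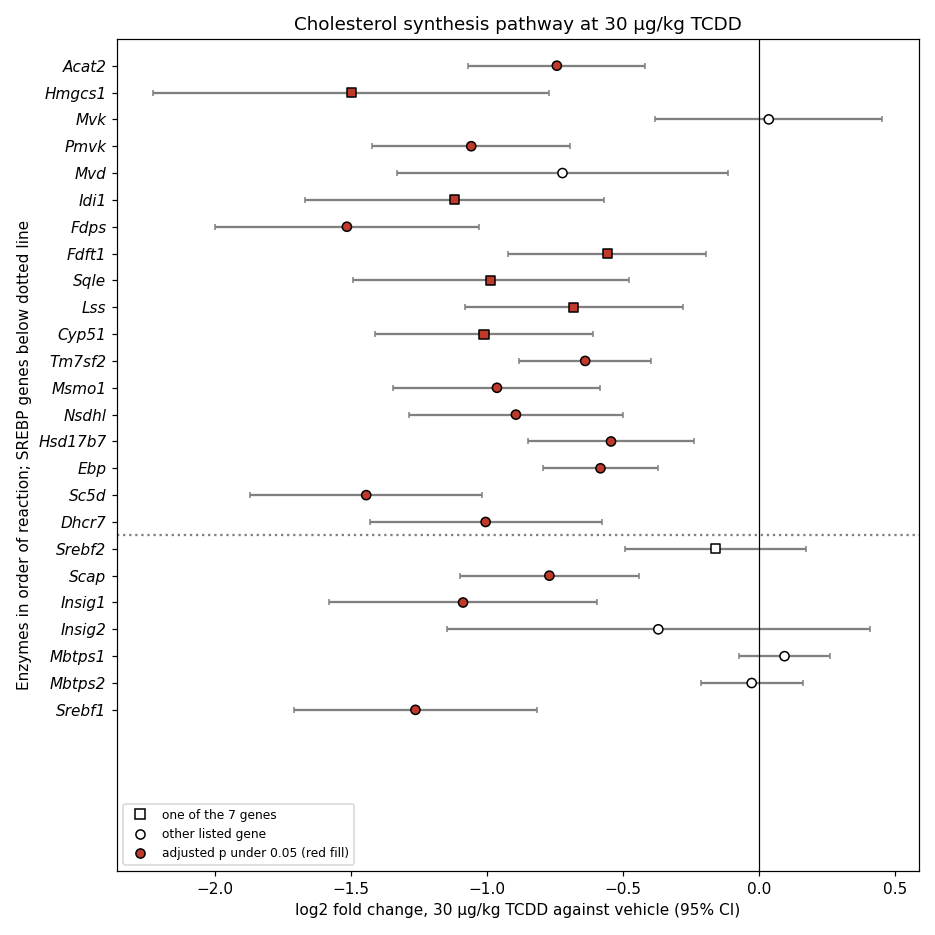
Log2 fold change at 30 µg/kg TCDD against vehicle with 95% confidence intervals (horizontal axis) for the 6 enzyme genes and 12 others in order of reaction, with *Srebf2* and the SREBP processing genes below the dotted line. Squares mark the 7 genes and red fill an adjusted p under 0.05. Of the enzymes, *Mvk* at 0.04 and *Mvd* at -0.72 are unfilled, and the lowest values are those of *Fdps* at -1.52 and *Hmgcs1* at -1.50.

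Of the 6 genes for SREBP processing and sterol sensing, 3 fell at both 10 and 30 µg/kg and none rose. Among all genes 7.47% and 14.1% fell at these doses. The 3 at 10 µg/kg became 1 without vehicle replicate 4. Without TMM 1 fell at 10 µg/kg, and 1 rose at 30 µg/kg. *Scap*, the escort of the SREBP precursors, fell already at 3 µg/kg, by 0.55 on the log2 scale (SE 0.16, adjusted p 0.02984). Its fall at the top dose was larger, and it decreased by 0.77 (SE 0.16, adjusted p 0.0003066), from 95.4 ± 13.5 to 55.9 ± 4.85 CPM (SD, n = 5). *Insig1*, which retains SCAP and is itself an SREBP target, fell by 1.09 (SE 0.24, adjusted p 0.0005963). *Srebf1*, which encodes the related SREBP1, fell by 1.26 (SE 0.22, adjusted p 2.205e-05), in contrast to the log2 fold change of -0.16 for *Srebf2*, a difference that was not tested. *Insig2* had a log2 fold change of -0.37 ± 0.39 (SE, adjusted p 0.5098). The protease genes *Mbtps1* and *Mbtps2* had 0.09 and -0.03, with SE of 0.08 and 0.09.

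The other listed SREBP2 targets were both called lower at 10 and 30 µg/kg, as were 7.47% and 14.1% of all genes. By 30 µg/kg *Stard4*, a sterol carrier, fell by 0.86 (adjusted p 0.001552), and *Tmem97*, a membrane protein of sterol handling, by 0.66 (adjusted p 0.0004857). Of the 7 genes for sterol esterification, efflux and the oxysterol response, 3 fell and 1 rose at 30 µg/kg. Among all genes 14.1% fell and 15.5% rose, so the 1 rise of 7 is near the general share. *Soat1*, which esterifies cholesterol and is abundant in macrophages, rose by 1.32 ± 0.28 (SE, adjusted p 0.000314), from 3.36 ± 0.59 to 8.40 ± 2.13 CPM (SD, n = 5). *Abcg8*, part of the biliary sterol exporter, fell by 0.53, and the oxysterol receptor genes *Nr1h2* and *Nr1h3* by 0.30 and 0.44. Without TMM 0 of the 7 fell.

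The fatty acid synthesis genes, which SREBP1 drives, were called at lower doses than the 7 genes. None was called below 1 µg/kg. Their median log2 fold change was nonetheless -0.75 at 0.01 µg/kg, -0.51 at 0.03 and 0.1 µg/kg and -0.68 at 0.3 µg/kg. Vehicle livers were widely spread, with 466 to 1574 CPM for *Fasn*. From 1 µg/kg 4 of 6 were lower, and 0.515% of all genes were lower at 1 µg/kg. At that dose *Fasn*, fatty acid synthase, had a log2 fold change of -1.64 (adjusted p 0.003355) where *Hmgcs1* had -0.34 (adjusted p 0.7464). All 6 fell at 30 µg/kg, as did 14.1% of all genes, and 4 to 6 fell with each compared liver left out in turn. *Fasn* was at -2.52, *Acly* at -2.06, *Elovl6* at -1.88, *Acaca* at -1.35, *Scd1* at -1.01 and *Me1* at -0.79. The difference between the lists was not tested.

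Markers of liver cell types also differed between the dose groups and vehicle. Among 5 hepatocyte markers, 3 were lower at 30 µg/kg (*Ttr*, *Ambp* and *Cps1*), *Alb* and *Hpx* had log2 fold changes of -0.08 and 0.38 without passing (adjusted p 0.6501 and 0.1141), and the summed level of the list overlapped between vehicle (107300 to 143300 CPM) and 30 µg/kg (104200 to 155800 CPM). Higher at that dose were 2 of 5 Kupffer cell and macrophage markers, with sums of 134 to 202 CPM in vehicle and 114 to 341 CPM. So were 3 of 5 other leukocyte markers, with 7.06 to 13.9 CPM and 15.3 to 32.9 CPM. Their sum was above every vehicle liver at 3 µg/kg as well, with 16.8 to 41.1 CPM, which is a comparison of ranges and not a test. Also higher at 30 µg/kg were 2 of 4 stellate cell markers, with 83.2 to 103.2 CPM and 203 to 323 CPM, and 3 of 4 endothelial markers, with 96.1 to 125 CPM and 113 to 189.8 CPM. None of the 4 cholangiocyte markers was called, with 3.90 to 5.76 CPM and 4.46 to 4.96 CPM, and no marker was at 0 reads in all livers. At 10 µg/kg the calls were 2 lower hepatocyte markers, 3 higher leukocyte, 2 higher stellate cell and 3 higher endothelial markers, and 0 Kupffer cell and macrophage markers. Of all 17464 genes tested, 1304 were lower and 1479 higher at 10 µg/kg. The shares at 30 µg/kg were 14.1% lower and 15.5% higher. The part of these shifts in the falls of the cholesterol synthesis genes was not tested.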

How the data were processed

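Liver RNA from 45 mice was sequenced with 50-base single reads. According to the study's methods and processing notes, the authors checked reads with FastQC 0.11.2, aligned them to GRCm38 with TopHat 1.4.1, converted alignments with SAMtools 0.1.19 and counted genes with HTSeq 0.6.1. The deposited values are raw read counts per gene. Strand handling is not stated, so reads of overlapping genes cannot be told apart, and 1.34% to 2.07% of counted reads were ambiguous between genes, while 9.11% to 17.1% fell on no gene. Both kinds were left out of library sizes.

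Counts were fitted in edgeR 4.0.16 (R 4.3.3), with all 45 livers in 1 model, TMM normalization, 1 coefficient per group, quasi-likelihood tests and Benjamini-Hochberg adjustment. Genes with more than 4 reads in any liver were kept. Depth ranged from 11767284 to 56509899 reads, and intervals from the model include the spread between mice. The fits were tested on simulated data. Alternatives were size factors by DESeq2's method, no TMM, other gene filters, adjustment over all doses, pairs of groups, DESeq2 1.42.0 and each liver left out. The random sequencing pools of the study are not in the labels, and within-pool values were therefore not computed. Replicates are separate mice, named by accession order.

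The members, the pathway and marker lists and the tests were chosen with earlier results of these data known. The genes named are the 7 members, genes of the 2 lists closest to them (1 gene is not reported here), genes of the other lists called at 30 µg/kg, and listed or well-known genes among the 20 most alike. Exceptions are said to be such. Motif and 50-base matches were found in Python 3.11.15 with pandas 2.3.3 in RefSeq and GENCODE sequence, and figures were drawn with matplotlib 3.10.9.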

Additional observations from a re-analysis of the deposited data

Results flagged for a closer look

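Of 63 groups of 5 livers (7 genes in 9 groups), 4 held a liver that stood apart from the other 4 by Dixon's test, which chance alone does in about 1 of 20 groups. *Hmgcs1* had 705 CPM in replicate 1 of 3 µg/kg, where the others had 291 to 366 CPM. *Idi1* had 2.24 CPM in replicate 5 of 30 µg/kg, where the others had 6.01 to 8.47 CPM. *Srebf2* had 51.8 CPM in replicate 1 of 10 µg/kg, where the others had 37.6 to 41.0 CPM, and 60.8 CPM in replicate 5 of 30 µg/kg, where the others had 36.2 to 41.0 CPM. Replicate 5 of 30 µg/kg was thus the lowest of its group for *Idi1* and the highest for *Srebf2*. The cause of these values was not tested.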

How the results depend on the processing

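DESeq2's size factors and the other gene filters changed none of the counts of calls, and no direction or call of a named gene, among the 43 results compared. The DESeq2 test differed in 1 of them, with 5 of the 7 genes called at any dose in place of 4. Without TMM the median log2 fold change of all genes shifted to 0.14 at 10 µg/kg and 0.23 at 30 µg/kg, and the share of calls that were lower went from 46.9% to 22.4% and from 47.7% to 19.7%. In that setting *Srebf2* at 30 µg/kg turned from -0.16 to 0.0501, and 3 of the 7 genes fell at 10 µg/kg. Of the other enzymes 6 fell at 10 µg/kg, of the SREBP processing genes 1 fell at 10 µg/kg and 1 rose at 30 µg/kg, and of the esterification and efflux genes 0 fell at 30 µg/kg. With a fold change of at least 2, 1 of the 7 genes fell at 10 µg/kg and 3 fell at 30 µg/kg. The other enzymes then gave 2 and 4, and of the SREBP processing genes 0 at 10 µg/kg, and of the other SREBP2 targets and the esterification and efflux genes 0 at 30 µg/kg. With only vehicle and the compared dose in the fit, 1 of the 7 fell at 3 µg/kg. Adjusted over all genes and doses, *Idi1* at 10 µg/kg (0.0541) and *Fdft1* at 30 µg/kg (0.05747) were not called.

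With each liver left out in turn, the genes called lower numbered 2 to 6 of 7 at 10 µg/kg and 5 to 6 at 30 µg/kg. They numbered 2 without vehicle replicate 2, 3 without replicate 4 of 10 µg/kg and 2 without replicate 5 of 10 µg/kg. Calls at any dose ranged from 3 to 6 and falling slopes from 5 to 7. Other enzymes lower at 10 µg/kg ranged from 6 to 11, with 6 without replicate 4 or replicate 5 of that dose, and at 30 µg/kg from 10 to 11. SREBP processing genes lower at 10 µg/kg ranged from 1 to 3, with 1 without vehicle replicate 4. No paired analysis was made, because the livers of different groups came from separate mice. Read depth was lowest for *Idi1*.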
